A study of Mus musculus with 4 samples.

Results

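The replication-dependent histone genes are the clustered genes that supply the nucleosome with its core histones H2A, H2B, H3 and H4 and the linker histone H1. Members were taken by name, as records of the count table whose gene symbol begins with Hist1h, Hist2h, Hist3h or Hist4h, or has the newer form for the same genes, with H13 and H1f0 left out. The rule gave 71 RefSeq transcript records of 67 genes, out of 32915 records in the table. By class there were 6 records of 6 H1 genes, 18 of 18 H2A genes, 22 of 18 H2B genes, 12 of 12 H3 genes and 13 of 13 H4 genes. The rule uses names and no measured value, although it was chosen with earlier results of these data known.

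The records were counted in 4 RNA-seq libraries of BV-2 cells, an immortalised mouse line that serves as a model of microglia, the macrophages of the brain. In 2 libraries the cells were controls, and in the other 2 they had received lipopolysaccharide (LPS), a bacterial cell wall component, at 10 ng/ml for 4 h. No genetic change other than the immortalisation is labelled in either group, and the whole study rests on 1 line. The growth description also speaks of mixed glial cultures, while the source of every sample is given as the line. Nothing in the labels says that the replicates were separate cultures, so the p-values measure only the spread between these libraries, which may be technical.

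Replication-dependent histone genes are transcribed mainly in S phase, when newly copied DNA needs new nucleosomes, and their RNA is degraded when DNA synthesis stops. They mostly lack introns, and their RNA ends in a conserved stem-loop, bound by the stem-loop binding protein SLBP, in place of a poly(A) tail. They sit in clusters of many near-identical copies. Libraries primed at random on total RNA after removal of ribosomal RNA, as here, can capture such RNA without a poly(A) tail.

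Of the 67 genes, 63 had 1 exon in the GENCODE M21 transcript used. The stem-loop sets these RNAs apart from nearly all others, so 1 member of each class is shown with it. The search took whole transcripts and asked for a stem of 6 base pairs, read as GG, 3 pyrimidines and T, around a loop of 4 bases, read as T, a pyrimidine, T and any base. It was found in 46 of the 67 genes, and in 44 of the 48 whose transcript model had at least 60 bases after the stop codon, against 0.101% of all 55450 GENCODE genes. It began 21 to 58 bases after the stop codon, with a median of 31. Capitals mark the 16 bases of stem and loop, with 5 bases on each side, from transcripts of GENCODE M21 on GRCm38 and 5′ to 3′ on the strand of the gene.
Hist1h1c, H1, chr13:23739507-23739532, plus strand: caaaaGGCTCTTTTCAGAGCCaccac
Hist2h2ac, H2A, chr3:96220413-96220438, minus strand: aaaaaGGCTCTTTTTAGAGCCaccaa
Hist1h2bm, H2B, chr13:21722501-21722526, plus strand: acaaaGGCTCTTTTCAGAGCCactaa
Hist1h3b, H3, chr13:23752815-23752840, plus strand: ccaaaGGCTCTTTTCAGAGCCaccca
Hist1h4d, H4, chr13:23581945-23581970, plus strand: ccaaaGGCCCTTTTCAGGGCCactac

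The stem differed by class. All stem-loops found in H1 (4 genes), H2A (11), H2B (10) and H3 (9) began with GGCTC, whereas the 12 found in H4 genes began with GGCCC in 10 and GGTCC in 2. The most frequent form over all classes was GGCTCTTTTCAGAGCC, in 26 genes, and the most frequent in H4 was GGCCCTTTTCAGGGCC, in 7. Hist2h2be, an H2B gene whose transcript model runs far past the stop codon, held no match.

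Promoters of 300 bases, 250 before and 50 after the transcription start, were available for 62 of the 67 genes from RefSeq on GRCm38.p6. CCAAT, read on both strands, was in 53 of the 62 promoters and in 37.9% of the 27025 promoters of all genes. It was in all 50 of the H1, H2A, H2B and H3 promoters and in 3 of 12 H4 promoters. TATAAA was in 35 of 62, against 14.2% of all genes. The octamer ATTTGCAT was in 7 of 18 H2A and 6 of 16 H2B promoters and in no other member, against 1.75% of all genes. Some neighbouring H2A and H2B genes have overlapping windows, such as Hist1h2ae and Hist1h2bg. The same site can then be counted in both classes, for each of these motifs. A match describes the letters in this window and is not evidence of a bound factor. The promoters below belong to 2 members whose RNA was lower after LPS in the test, Hist1h3b and Hist1h2bm, and to Hist1h4b, an H4 gene with no match. Capitals mark each of these motifs in the direction found, so that CCAAT on the other strand reads ATTGG. No 2 of these motifs overlapped in the sequences shown.
Hist1h3b, chr13:23752095-23752394, plus strand: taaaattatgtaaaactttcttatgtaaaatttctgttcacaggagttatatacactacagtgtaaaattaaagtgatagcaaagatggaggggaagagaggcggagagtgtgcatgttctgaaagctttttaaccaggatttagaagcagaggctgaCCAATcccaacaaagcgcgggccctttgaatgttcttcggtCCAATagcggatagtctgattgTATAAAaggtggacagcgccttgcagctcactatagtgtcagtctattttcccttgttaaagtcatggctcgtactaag
Hist1h2bm, chr13:21721794-21722093, plus strand: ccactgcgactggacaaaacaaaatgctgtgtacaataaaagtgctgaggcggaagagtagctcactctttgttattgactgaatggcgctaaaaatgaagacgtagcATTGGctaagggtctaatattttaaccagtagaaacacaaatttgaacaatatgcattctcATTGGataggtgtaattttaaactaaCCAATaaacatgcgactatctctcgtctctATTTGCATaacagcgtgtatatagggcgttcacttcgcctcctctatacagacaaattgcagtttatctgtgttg
Hist1h4b, chr13:23756687-23756986, plus strand: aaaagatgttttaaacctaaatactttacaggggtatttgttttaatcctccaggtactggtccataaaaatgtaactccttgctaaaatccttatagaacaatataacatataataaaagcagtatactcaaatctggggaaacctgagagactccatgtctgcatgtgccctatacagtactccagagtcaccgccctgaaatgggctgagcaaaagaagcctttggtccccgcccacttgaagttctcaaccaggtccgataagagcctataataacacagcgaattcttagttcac

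Library totals ran from 2778686 to 3368693 counts, and 5 very abundant records took 53.4% to 67.5% of them. The largest, NR_046233, the precursor of ribosomal RNA, held 38.2% in control replicate 1 and 30.6% to 32.4% in the others, although ribosomal RNA had been removed, and its part in the histone values was not tested. All other records shared 902176 counts in control replicate 1 and 1327707 to 1425303 in the other libraries. Values below are normalised counts, that is counts divided by the effective library size (TMM scaling) and multiplied by the mean effective size, and they are not corrected for transcript length. By this scaling control replicate 1 stood apart, with a TMM factor of 0.80 against 1.00 to 1.21 in the other libraries. Counts of the control pair also differed more than those of the LPS pair (chi-square divided by its degrees of freedom 6.50 and 1.78). The LPS treatment was visible in Il1b, an inflammatory cytokine gene, at 2.81 and 5.06 normalised counts in the controls and 1990 and 2071 after LPS, and in Acod1, which makes itaconate, at 23.3 ± 0.795 and 3812 ± 35.5 (SD, n = 2 per group). Of 10 microglia and macrophage markers 7 had at least 10 counts, and the summed level of the 10 was 1945 to 2315 in the controls and 2524 to 2554 after LPS. Without Spi1, at 580 and 438 in the controls and 1121 and 1129 after LPS, the sum was 1507 to 1736 in the controls and 1396 to 1432 after LPS. The 20 markers of astrocytes, oligodendrocytes, neurons, endothelial cells and fibroblasts were all at 0. Only 10 of these 20 are genes with 1 record in the table, and Itgam, a microglia marker at 0, has 2 records.

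Most members were measurable. Of the 71 records 50, each of a different gene, passed the filter on low counts (edgeR's filterByExpr): 4 in H1, 13 in H2A, 12 in H2B, 10 in H3 and 11 in H4. Another 16 were at 0 in all 4 libraries, which allows up to 3 counts over the libraries, and 5 had between 1 and 8 counts in all. The records at 0 were 1 of H1, 5 of H2A, 7 of H2B, 2 of H3 and 1 of H4. Among records that did not pass, the highest were Hist1h1a in H1 with 8 counts, Hist1h4n in H4 with 6 and Hist1h2ba, a testis H2B gene, with 4. In H2A and H3 every record that did not pass was at 0.

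Records at 0 were often those of near-identical copies. Of the 100-base windows in a transcript, a median of 74.9% also occurred in a transcript of another gene for the records at 0, and 33.6% for the tested records. The pairs Hist1h2ao and Hist1h2ap, Hist2h2aa1 and Hist2h2aa2, Hist1h2bq and Hist1h2br, and Hist2h3c1 and Hist2h3c2 were all at 0. Genes with 2 or more records in the table were also seldom tested, in 7.06% of genes with 2 records against 34.8% of genes with 1. Over 50% of windows were shared in 18 of the 50 tested records. How the counting treated reads that fit several records is not given in the sources used here, so a value of 1 such copy can hold or lack reads of another, and class totals are given first.

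Summed over a class and scaled by TMM, histone RNA was highest in control replicate 1 in all 5 classes, and the distance from control replicate 2 to the LPS libraries depended on the class. H3, which carries many of the regulatory histone tail modifications, summed to 7767 and 5865 normalised counts in control replicates 1 and 2 and to 5013 and 4203 in LPS replicates 1 and 2. H1, the linker histone that binds DNA where it enters and leaves the nucleosome, summed to 7424 and 4747 in the controls and to 4321 and 3921 after LPS. In both classes the 2 LPS libraries lay below the 2 controls, by a clearer margin in H3.

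H2A, which pairs with H2B in the nucleosome, summed to 7467 and 5033 in the controls and 4685 and 3953 after LPS. H2B summed to 17474 and 11752 in the controls and 10677 and 10137 after LPS. Without Hist2h2bb, whose windows all occur outside its own gene too, the H2B sums were 10283 and 6946 against 6335 and 6045. H4, the partner of H3, summed to 15023 and 9998 in the controls and 10049 and 9586 after LPS. The groups did not overlap in H2A and H2B, while in H4 control replicate 2 lay between the LPS libraries.

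This order of the libraries depended on the scaling. As a share of all counts in a library, with the 5 abundant records kept in, the members took 1.41% and 1.45% in control replicates 1 and 2 and 1.12% and 1.05% in LPS replicates 1 and 2. On this scale the controls lay above both LPS libraries in every class, and they were close together in all classes but H3. H4 took 0.384% and 0.387% in the controls and 0.323% and 0.318% after LPS, so that its groups were separate. H3 took 0.199% and 0.227% against 0.161% and 0.139%. The log2 ratios of group means on plain library totals were -0.48 in H1, -0.46 in H2A, -0.41 in H2B, -0.50 in H3 and -0.27 in H4. TMM sets most genes level between the libraries, whereas plain totals move with the abundant records, and which scale is nearer to the RNA content of the cells was not tested.

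**Figure D1:**
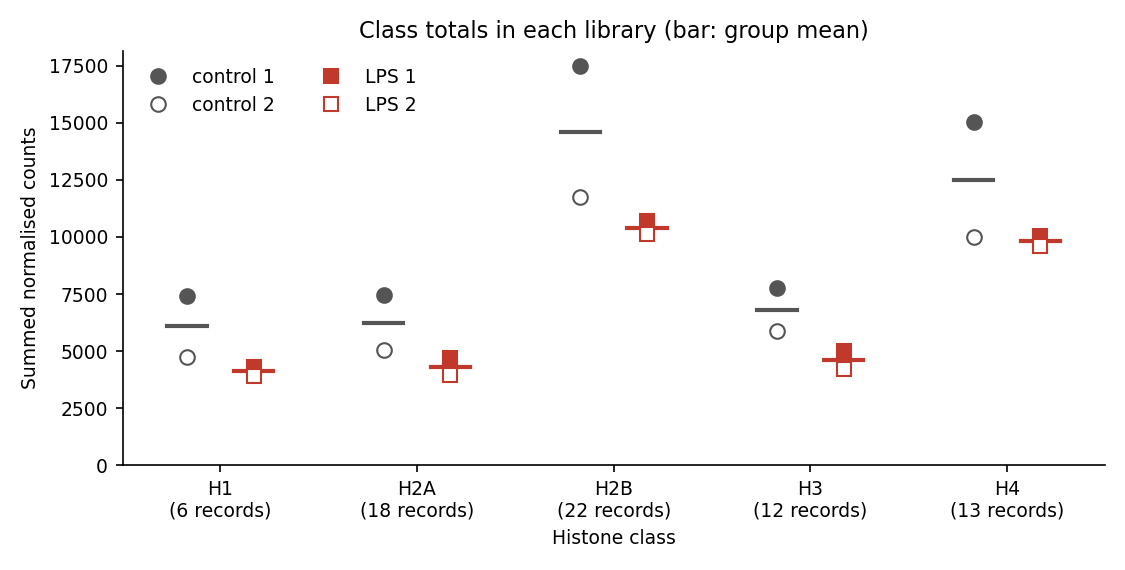
Summed TMM-normalised counts (vertical axis, linear from 0) of all records in each histone class (horizontal axis), with 1 point per library and a bar at each group mean. Control 1 is the highest library in every class, H3 keeps control 2 at 5865 above the LPS libraries at 5013 and 4203, and in H4 control 2 at 9998 lies between them, an order that does not hold on plain library totals.

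With TMM, the log2 ratios of the group means of the class totals stood at -0.56 in H1, -0.53 in H2A, -0.49 in H2B, -0.56 in H3 and -0.35 in H4. Against control replicate 2 alone they stood at -0.20, -0.22, -0.18, -0.35 and -0.03 in the same order. The mean H3 total was 6816 ± 1345 in controls and 4608 ± 572 after LPS, and that of H4 was 12511 ± 3554 and 9817 ± 327 (SD, n = 2 per group). The difference in H4 was thus smaller than the control SD, and that in H3 was larger. With 2 libraries against 2, a two-sided exact permutation test cannot give a p below 0.333, and the totals are given as a description. A smaller share of cells making histone RNA and less histone RNA per cell cannot be told apart in such bulk samples.

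The make-up of the histone counts is free of any scaling between libraries. H3 made up 14.1% (95% Wilson interval 13.7 to 14.4%) and 15.7% (15.35 to 16.02%) of the histone counts in control replicates 1 and 2, and 14.4% (14.1 to 14.8%) and 13.2% (12.9 to 13.6%) in LPS replicates 1 and 2. H4 made up 27.2% (26.8 to 27.7%) and 26.7% (26.3 to 27.2%) in the controls, and 28.9% (28.5 to 29.4%) and 30.1% (29.7 to 30.7%) after LPS. The intervals cover counting error only. The H4 share was higher in both LPS libraries than in both controls, whereas the H3 share of LPS replicate 1 lay between the controls. Per 100 counts of H4 there were 51.7 and 58.7 counts of H3 in the controls, and 49.9 and 43.8 after LPS. Shares of H1 ran from 12.3 to 13.5%, of H2A from 12.4 to 13.5% and of H2B from 30.7 to 31.9%.

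Tested record by record with edgeR's quasi-likelihood test, 3 of the 50 members passed an adjusted p of 0.05 with lower values after LPS, against 1.70% of all 6981 records tested. They were Hist2h2be and Hist1h2bm of H2B and Hist1h3b of H3. None was higher, against 3.82% of all records. At an unadjusted p below 0.05 there were 22 members, all lower (3 in H1, 6 in H2A, 5 in H2B, 7 in H3 and 1 in H4), and 15.4% of all records. DESeq2 called Hist1h2bm and Hist1h3b lower and none higher, against 0.945% of all records lower and 2.91% higher. Scaled by plain library totals, edgeR called none of the members (13 had an unadjusted p below 0.05, all lower), against 0.158% of all records lower and 1.56% higher. The log2 fold change was then still negative in 49 of 50, with a median of -0.40. The fitted log2 fold change was negative in 49 of 50 members and in 51.7% of all records, and its median was -0.47 over the members and -0.01 over all records. By class the median was -0.59 in H1, -0.52 in H2A, -0.44 in H2B, -0.62 in H3 and -0.36 in H4.

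**Figure D2:**
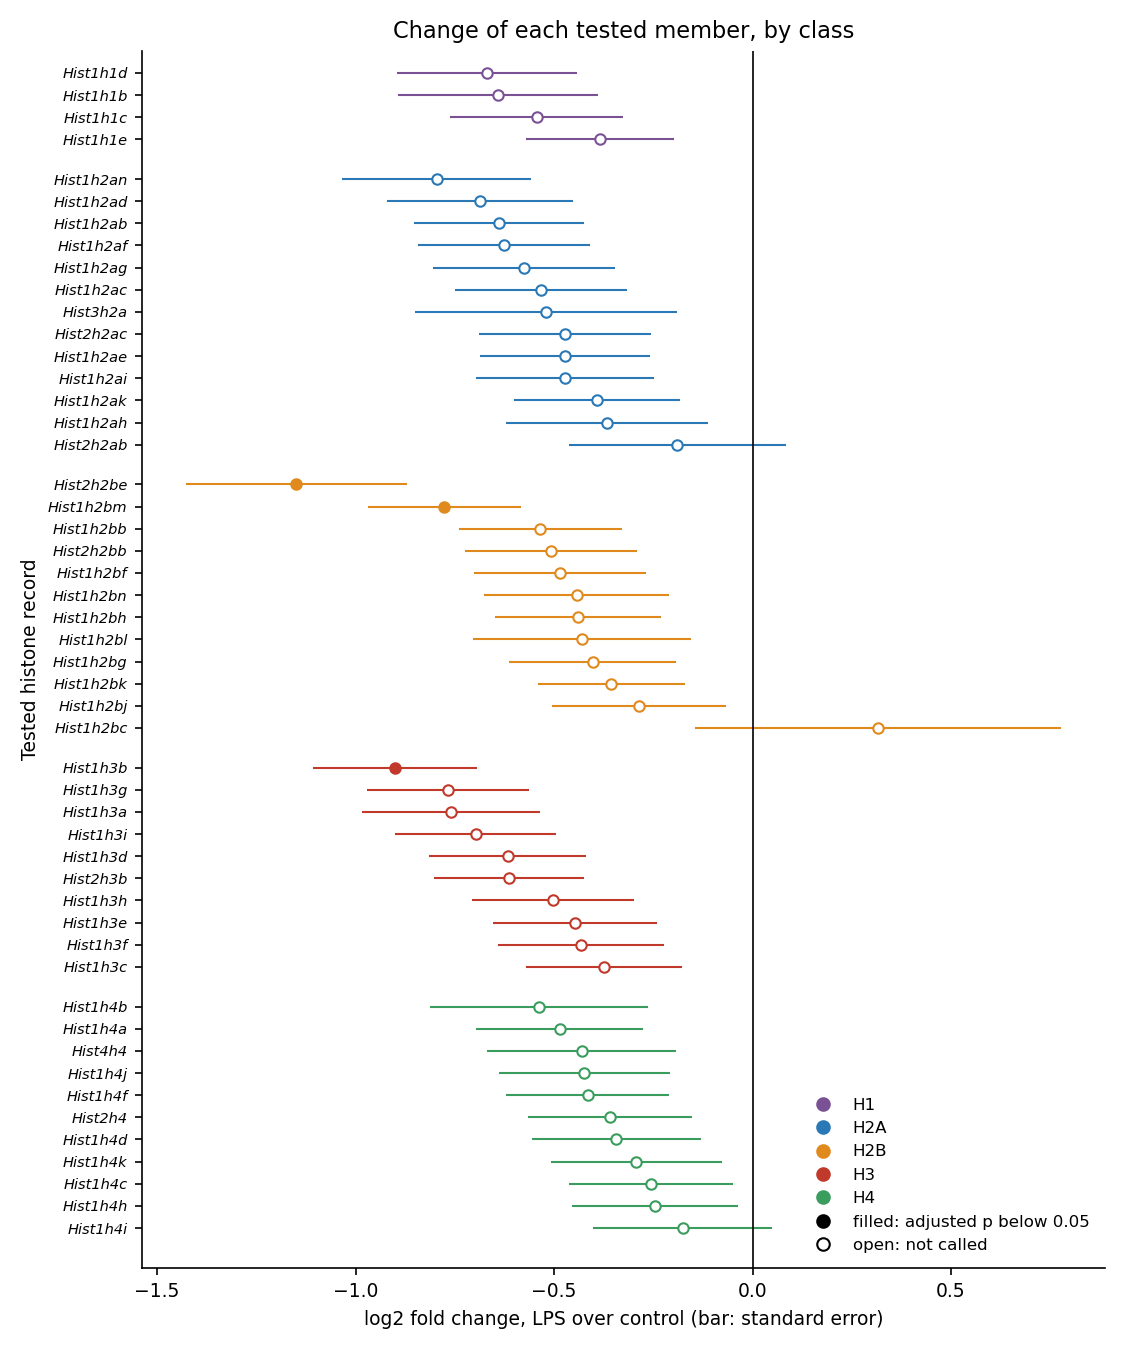
Fitted log2 fold change of LPS over control (horizontal axis) for each of the 50 tested records (vertical axis), coloured by class, with bars of 1 standard error and filled points for an adjusted p below 0.05. The 3 filled points are Hist2h2be, Hist1h2bm and Hist1h3b, and Hist1h2bc is the 1 member to the right of 0.

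Both control libraries lay above both LPS libraries in 37 of the 50 members, against 21.9% of all tested records. The count was 4 of 4 in H1, 10 of 13 in H2A, 8 of 12 in H2B, 10 of 10 in H3 and 5 of 11 in H4. With TMM, control replicate 1 was the highest library in 48 members, and LPS replicate 2 the lowest in 40. Control replicate 1 lay above control replicate 2 in 48 members, against 53.3% of all records, with a median log2 ratio of 0.56 over the members and 0.04 over all records. Control replicate 2 alone lay above both LPS libraries in 37 members, against 39.5% of all records. The median log2 ratio of LPS replicate 1 to LPS replicate 2 was 0.17 over the members and 0.00 over all records, and replicate 1 was the higher in 46. Most members therefore differed in the same direction within each group as well as between the groups. The share of all records was not computed for the highest library, the lowest library or the order of the LPS pair. Over all tested records the ratio of the control pair rose with GC content, as given below. Whether the members moved more than records of like GC content was not tested, and members that share sequence are not independent.

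**Figure D3:**
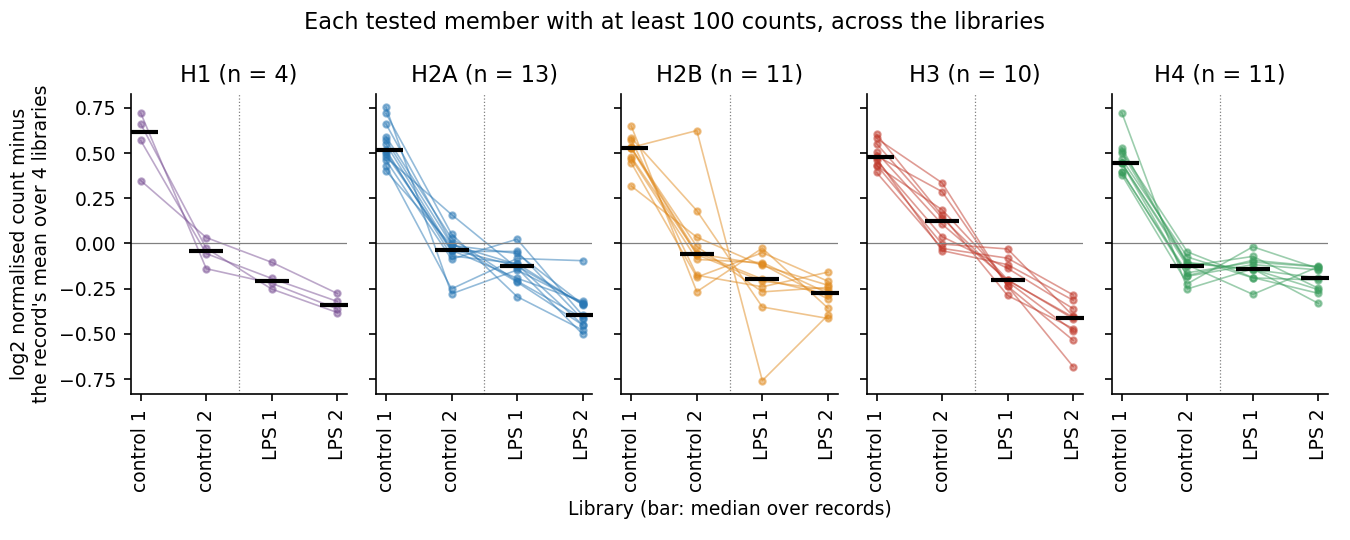
Level of each tested member with at least 100 counts in the 4 libraries (horizontal axis), as the log2 TMM-normalised count minus the mean of that record over the libraries (vertical axis), in 1 panel per class with a bar at the median. Lines only join the points of 1 record. Control 1 is at the top in every class, control 2 lies apart from the LPS libraries in H3, and in H4 it lies level with them.

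Without control replicate 1, the median log2 fold change of the members was -0.17 and 40 of 50 were negative. The class medians were then -0.20 in H1, -0.18 in H2A, -0.15 in H2B, -0.44 in H3 and -0.02 in H4. In this fit 8 members were lower and none higher at an adjusted p of 0.05, against 6.65% of all records lower and 8.51% higher, with the single control assumed to vary like the LPS libraries. Of these, 6 were H3 records (Hist1h3a, Hist1h3b, Hist1h3d, Hist1h3g, Hist1h3i and Hist2h3b) and 2 were the H2B records called with all libraries. Whether the classes differ was not tested. Without control replicate 2 the median was -0.74 and 48 members were lower, against 8.09% of all records. Without LPS replicate 1 or LPS replicate 2 no member passed edgeR's adjusted threshold, and a smaller share of all records passed it than with all libraries. In these fits the control pair alone set the spread, and its part in the lost calls was not tested.

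Ratios within the control pair followed base composition. Over 6924 tested records with a transcript model, the GC content had a Spearman correlation of 0.66 with the log2 ratio of control replicate 1 to control replicate 2, and of 0.27 with that of the LPS pair. These are correlations across genes within 4 libraries, and genes are not independent replicates. The median GC content was 57.9% for the members and 49.95% for all tested records, and 39 of 50 members lay above the latter. Once a trend on GC and transcript length had been removed, the log2 ratio of class totals was -0.56 in H1, -0.37 in H2A, -0.39 in H2B, -0.49 in H3 and -0.30 in H4, and 17 members were lower by edgeR, against 3.91% of all records. These were 3 of 4 in H1, 3 of 13 in H2A, 4 of 12 in H2B, 6 of 10 in H3 and 1 of 11 in H4. Without control replicate 1 and with the trend removed, 18 were lower, 6 of them in H3 and none in H4, against 4.93% of all records. The part of depth and base composition in the difference between the groups was not tested beyond these fits.

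**Figure D4:**
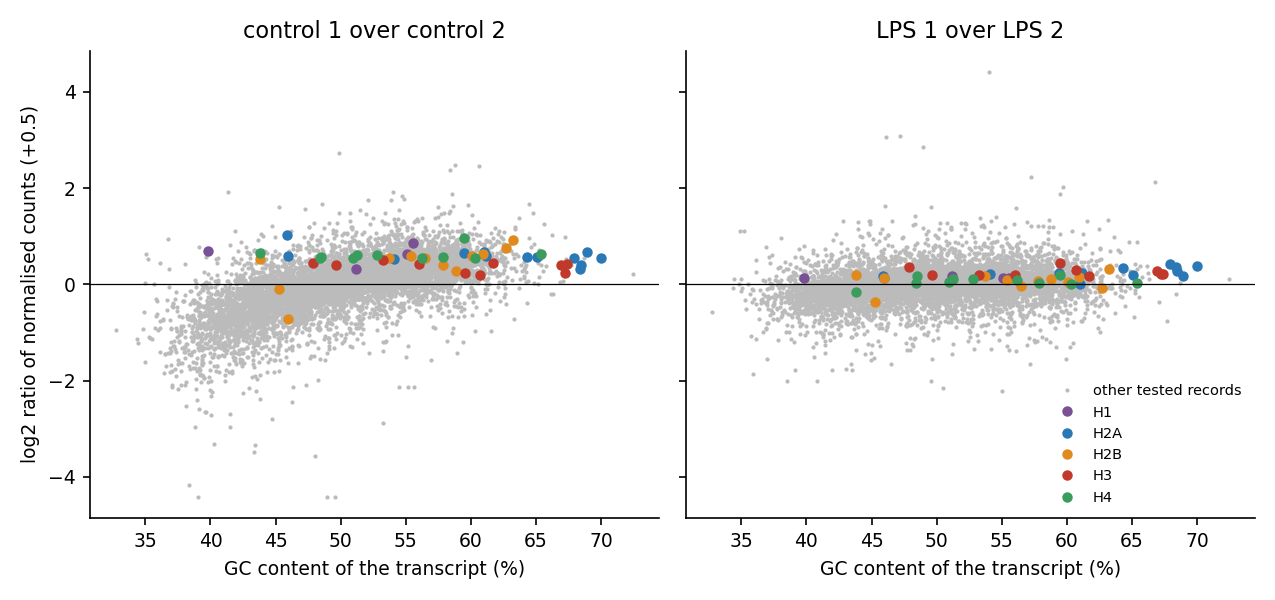
Log2 ratio of the 2 replicates of a group (vertical axis, with 0.5 added to each normalised count) against the GC content of the transcript in percent (horizontal axis), for controls on the left and LPS on the right. Grey points are other tested records and coloured points the members. The grey cloud climbs with GC content in the control pair, with a Spearman correlation of 0.66, and much less in the LPS pair, with 0.27.

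Among the H3 genes, Hist1h3b (H3c2, NM_178203, chromosome 13, 23752345 to 23752840, GRCm38.p6) had 608 and 512 normalised counts in control replicates 1 and 2, and 345 and 253 in LPS replicates 1 and 2. It fell by 0.90 on the log2 scale (SE 0.207, edgeR adjusted p = 0.0253), and both controls lay well above both LPS libraries. It is the gene whose promoter, shown above, holds both CCAAT and TATAAA. Within the class it gave 7.82 and 8.74 of every 100 H3 counts in the controls and 6.88 and 6.03 after LPS. Without control replicate 1 the log2 fold change was -0.77 (adjusted p = 2.62e-06). Of its windows 56.6% occurred in another gene's transcript, so reads of other H3 copies may be in its value. It had adjusted p = 0.134 without LPS replicate 1, 0.804 without LPS replicate 2 and 0.308 with plain library totals.

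The 3 most abundant H3 records were not called. Hist1h3e (chromosome 13, 23561475 to 23562385) had 1468 and 1031 in the controls and 977 and 853 after LPS, with a log2 fold change of -0.45 (adjusted p = 0.333). Hist1h3f (chromosome 13, 23544052 to 23544954) had 1153 and 852 against 836 and 646, and Hist1h3c (chromosome 13, 23745042 to 23745521) had 992 and 741 against 714 and 620. Their log2 fold changes of -0.43 and -0.37 had adjusted p of 0.369 and 0.430. In all 3 the groups were separate, but control replicate 2 lay close to LPS replicate 1. The other 5 H3 records called without control replicate 1, which were not called with all libraries under TMM, were chosen for description after their values were seen. Hist1h3g had 698 and 511 in the controls and 376 and 332 after LPS (log2 fold change -0.77, edgeR adjusted p = 0.0540 with all libraries). Hist1h3i had 902 and 679 against 532 and 440, and Hist1h3d had 741 and 563 against 454 and 394. Hist2h3b had 563 and 475 against 363 and 313, and Hist1h3a had 165 and 143 against 99.8 and 81.2. Windows also found in other genes' transcripts made up 100% in Hist2h3b, 68.6% in Hist1h3i, 37.1% in Hist1h3g, 32.2% in Hist1h3a and 20.4% in Hist1h3d. Reads of other copies may thus be in these values, above all in that of Hist2h3b. As a ratio, control replicate 2 lay farther above LPS replicate 1 in these 5 than in the 3 most abundant records. They were picked by a fit of control replicate 2 against the LPS libraries, so this gap was built into the choice. Over the 10 tested H3 records the log2 fold changes ran from -0.90 to -0.37.

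In H2B, Hist2h2be (H2bc21, NM_178214, chromosome 3, 96221072 to 96223738) had the largest difference of any member, at low counts. It had 45 and 80 raw counts in control replicates 1 and 2 and 28 and 34 in LPS replicates 1 and 2, or 63.3, 67.5, 25.9 and 33.3 normalised counts. It fell by 1.15 on the log2 scale (SE 0.278, edgeR adjusted p = 0.0340). The controls were close together and lay above both LPS libraries, and control replicate 1 was not the highest. It shared no window with another gene, and its GC content of 45.3% is below that of most members. Its model has no stem-loop match, as given above. Without control replicate 1 the log2 fold change was -1.18 (adjusted p = 0.000322). The call was lost with DESeq2 (adjusted p = 0.201), with plain library totals (0.384) and without LPS replicate 1 (0.557) or LPS replicate 2 (0.177).

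Hist1h2bm (H2bc14, NM_178200, chromosome 13, 21722044 to 21722526) had 1134 and 857 normalised counts in the controls and 593 and 567 after LPS. It fell by 0.78 on the log2 scale (SE 0.192, edgeR adjusted p = 0.0382). Its LPS libraries were close together and below both controls, and it gave 6.49 and 7.30 of every 100 H2B counts in the controls against 5.55 and 5.60 after LPS. It shared 6.59% of its windows, and its promoter holds the octamer and CCAAT shown above. Without control replicate 1 the log2 fold change was -0.56 (adjusted p = 0.000247), and the adjusted p was 0.577 without LPS replicate 1, 0.725 without LPS replicate 2 and 0.283 with plain library totals.

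The most abundant member of all in counts was Hist2h2bb (H2bc18, NM_175666, chromosome 3, 96269700 to 96270192). It had 7190 and 4806 in the controls and 4342 and 4093 after LPS, with a log2 fold change of -0.51 (adjusted p = 0.288). It gave 40.4 to 41.1 of every 100 H2B counts in each library, so its share of the class was nearly level. All of its windows also occurred in transcripts outside its own gene, most often of the gene model Gm20628, so the counts cannot be assigned to the histone alone. Hist1h2bb (chromosome 13, 23746734 to 23747223) had 2087 and 1431 in the controls and 1203 and 1223 after LPS. Hist1h2bn (chromosome 13, 21754076 to 21754553) had 2006 and 1193 in the controls and 1141 and 1207 after LPS. Neither was called (log2 fold change -0.53 and -0.44, adjusted p = 0.224 and 0.428), and in Hist1h2bn LPS replicate 2 lay above control replicate 2. Hist1h2bc, a gene with several records and 45 counts on the tested one, was the only member with a positive log2 fold change, at 0.32 (SE 0.461).

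None of the 4 tested H1 genes was called by edgeR with all libraries under TMM or by DESeq2, while 3 were called with the GC and length trend removed, as given above, and 2 without the count filter. Hist1h1c (NM_015786, chromosome 13, 23738807 to 23739531), which encodes linker histone H1.2, had 2771 and 1796 normalised counts in the controls and 1633 and 1495 after LPS. Hist1h1b (chromosome 13, 21779832 to 21780625), for H1.5, had 2250 and 1239 in the controls and 1171 and 1062 after LPS. In Hist1h1b control replicate 1 stood far above the other libraries, and control replicate 2 lay just over the LPS pair. Hist1h1e (chromosome 13, 23621777 to 23622558), for H1.4, had 1218 and 979 against 890 and 790. Hist1h1d (chromosome 13, 23555032 to 23555807), for H1.3, had 1179 and 732 against 626 and 572. The groups did not overlap in any of the 4. The log2 fold changes were -0.54, -0.64, -0.38 and -0.67 in the order given, with adjusted p of 0.248, 0.235, 0.369 and 0.151 (edgeR).

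In H2A neither edgeR with all libraries under TMM nor DESeq2 called a record. Hist2h2ac (NM_175662, chromosome 3, 96220413 to 96220880) was the most abundant, with 2259 and 1504 in the controls and 1461 and 1247 after LPS (fitted log2 difference -0.47, adjusted p = 0.329). Hist1h2ab (chromosome 13, 23751088 to 23751592) had 886 and 600 against 509 and 442 (-0.64, adjusted p = 0.145). Hist1h2ai (chromosome 13, 21716412 to 21716859) had 734 and 501.3 against 501.1 and 386, so control replicate 2 and LPS replicate 1 were level. The largest difference of the class was in Hist1h2an (chromosome 13, 21786774 to 21787248), with 399 and 252 against 198 and 174 (log2 fold change -0.80, SE 0.239, adjusted p = 0.0943). Of the windows of Hist1h2ai 88.4% and of those of Hist1h2an 83.3% occurred in transcripts of other genes. The 13 tested H2A records ran from -0.80 to -0.19 on the log2 scale.

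H4 had the smallest differences. Hist1h4d (H4c4, NM_175654, chromosome 13, 23581568 to 23581969) had 2547 and 1715 in the controls and 1781 and 1575 after LPS. Hist2h4 (H4c14, chromosome 3, 96262934 to 96263317) had 2418 and 1649 against 1609 and 1557. Hist1h4f (chromosome 13, 23551286 to 23551668) had 2158 and 1483 against 1368 and 1357. In these 3 control replicate 1 stood above the rest and control replicate 2 was near the LPS libraries. Their log2 fold changes were -0.34, -0.36 and -0.42, with adjusted p of 0.544, 0.491 and 0.385. The largest of the class was in Hist1h4b (chromosome 13, 23756937 to 23757386), at 705 and 359 against 387 and 339. Its log2 fold change of -0.54 (adjusted p = 0.405) was 0.03 without control replicate 1, so with TMM the difference rests on that library, and -0.43 on plain library totals. The clustered H4 genes are known for encoding the same protein. With all libraries under TMM none of the 11 tested passed edgeR's threshold, nor did any with DESeq2, and Hist1h4a alone passed once the GC and length trend was removed.

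By position, 54 of the 67 genes lie on chromosome 13. The tested records of its block at 23531044 to 23934913 had a median log2 fold change of -0.49 (26 records), those of the block at 21715711 to 22043658 had -0.44 (16 records) and those of chromosome 3 had -0.49 (6 records). Each of these 3 groups held 1 of the members called lower, against 1.70% of all tested records. Whether calls differ by position was not tested. In sum they had 28578, 13577 and 12598 normalised counts in control replicate 1, then 19704, 8885 and 8568 in control replicate 2, 18306, 8339 and 7874 in LPS replicate 1 and 16646, 7603 and 7316 in LPS replicate 2. The order of the libraries was the same in all 3 places.

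The surroundings of the histone genes are given by 4 lists of related genes, of which 2 tested genes were called. The first holds other histone variants, most of which are made throughout the cell cycle from polyadenylated RNA. Of 11 such genes 8 were tested, 1 was higher, none was lower, and the median log2 fold change was -0.01. Of all tested records 3.82% were called higher and 1.70% lower. H3f3b, which encodes the replacement histone H3.3, had 637 and 852 normalised counts in the controls and 1390 and 1272 after LPS. It rose by 0.83 on the log2 scale (SE 0.194, edgeR adjusted p = 0.0277), with the groups well apart, although the adjusted p was 0.586 with plain library totals, 0.0708 with totals that leave out the 5 most abundant records and 0.0519 with a stricter count filter. Without control replicate 1 its log2 fold change was 0.65 (adjusted p = 4.11e-06), without LPS replicate 1 the adjusted p was 0.510 and without LPS replicate 2 it was 0.343. H3f3a, which encodes the same H3.3 protein, had 1110 and 1360 in the controls and 1283 and 1370 after LPS (fitted log2 difference 0.10, adjusted p = 0.907).

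Set against the replication-dependent H3 total of the same library, which needs no scaling, H3f3b gave 8.20 and 14.5 counts per 100 in the controls and 27.7 and 30.3 after LPS. H3f3a gave 14.3 and 23.2 in the controls and 25.6 and 32.6 after LPS. Both ratios were higher in both LPS libraries, with the wider gap in H3f3b. With TMM the H3 total in the denominator was itself lower after LPS, while the level of H3f3a changed little. The GC content was 41.2% for H3f3b and 43.2% for H3f3a, below the member median of 57.85%. The part of base composition in these ratios was not tested. H2afz, the gene of variant H2A.Z, had 2796 and 2731 in the controls and 2695 and 2589 after LPS (fitted log2 difference -0.06, adjusted p = 0.940). H2afx, for the DNA damage variant H2A.X, whose RNA is also made in S phase in a form with the stem-loop, had 1557 and 968 against 1488 and 1271 (0.13, adjusted p = 0.903), with the controls on either side of the LPS libraries. H1f0, a linker variant of non-dividing cells that the rule leaves out, had 270 and 272 in the controls and 172 and 187 after LPS (log2 fold change -0.59, SE 0.190, adjusted p = 0.120). It was named after its values were seen.

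The second list holds factors that transcribe, cut or degrade histone RNA. Of 24 genes 15 were tested, none was called in either direction by edgeR or DESeq2 or reached an unadjusted p of 0.05, 10 were negative, and the median log2 fold change was -0.12. Slbp itself was not tested. Cpsf2, a part of the complex that cuts histone pre-mRNA, had 326 and 531 in the controls and 445 and 472 after LPS (0.09, adjusted p = 0.940). Snrpb, a core protein of small nuclear ribonucleoproteins, had 452 and 446 against 500.2 and 362 (-0.06, adjusted p = 0.958). The third list, histone chaperones, had 18 tested of 25 genes, with none called by edgeR or DESeq2, 14 negative and a median of -0.18. In edgeR 2 of them had an unadjusted p below 0.05, against 15.4% of all tested records. Mcm2, a helicase subunit that also binds H3 and H4, had 1204 and 982 against 896 and 832 (log2 fold change -0.34, adjusted p = 0.445), and Npm3, a nucleoplasmin family gene, had 940 and 785 against 887 and 885 (0.04, adjusted p = 0.971).

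The fourth list holds genes of DNA replication and the S phase programme, of which 33 of 47 were tested. By edgeR none was higher, 1 was lower (4 at an unadjusted p below 0.05) and 31 were negative, with a median log2 fold change of -0.28. Of all tested records 3.82% were called higher and 1.70% lower, 15.4% had an unadjusted p below 0.05 and 51.65% were negative. E2f2, an E2F transcription factor gene, had 60.5 and 47.3 normalised counts in the controls and 23.1 and 16.6 after LPS. It fell by 1.41 on the log2 scale (SE 0.320, edgeR adjusted p = 0.0241), with the groups apart. The call was lost with DESeq2 (adjusted p = 0.118), with plain library totals (0.185) and without LPS replicate 1 (0.0533) or LPS replicate 2 (0.336), and without control replicate 1 the log2 fold change was -1.23 (adjusted p = 0.00279). Rrm1, the large subunit of ribonucleotide reductase, had 1106 and 1124 in the controls and 1047 and 975 after LPS (-0.14, adjusted p = 0.837). Mcm5, a subunit of the replicative helicase, had 1173 and 1015 against 1008 and 798 (-0.28, adjusted p = 0.601). For Rrm1 the controls were level, whereas for Mcm5 control replicate 2 was level with LPS replicate 1.

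**Figure D5:**
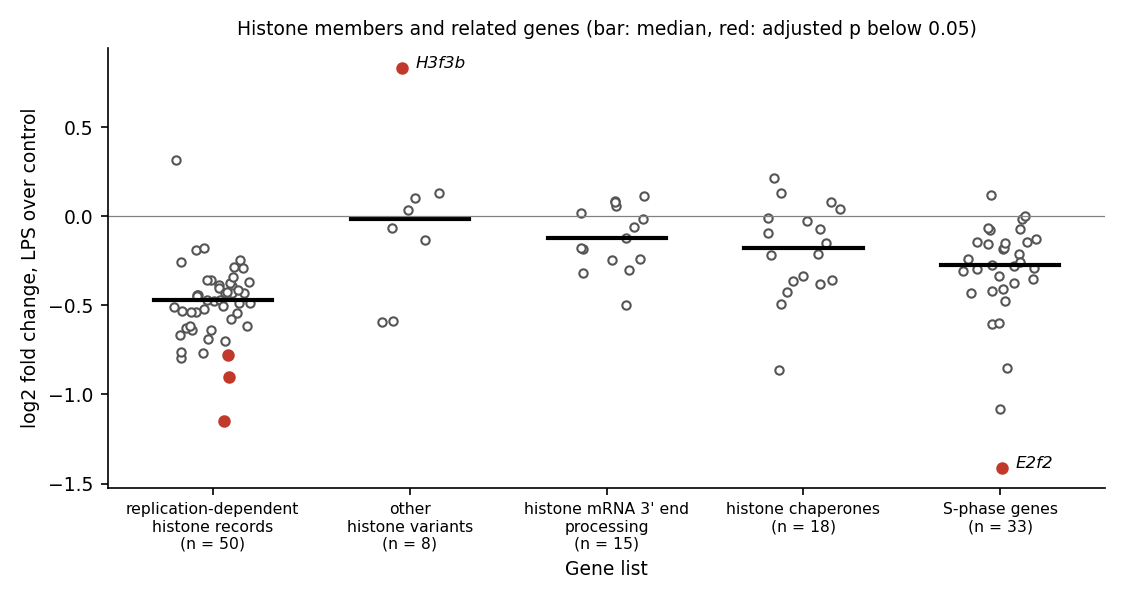
Fitted log2 fold change of LPS over control (vertical axis) of the 50 histone members and of the tested genes of 4 related lists (horizontal axis), 1 point per record, with a bar at the median and red points for an adjusted p below 0.05. The medians are -0.47, -0.01, -0.12, -0.18 and -0.28 from left to right, and H3f3b at 0.83 and E2f2 at -1.41 are the called points of the related lists.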

How the data were processed

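RNA-seq of 2 control and 2 LPS-treated BV-2 libraries was analysed from the whole-number counts per RefSeq record that the authors deposited. Although its name calls the table normalised, each library has a total of its own, and the values were treated as raw counts. Per the labels' protocols, total RNA was depleted of ribosomal RNA and made into directional, randomly primed libraries. Per the submitters' processing notes, the build was mm10 and the tools were HTSeq 0.6.1, TopHat2 2.0.10, Cufflinks 2.2.1, Trimmomatic 0.33 and CASAVA 1.8.2. Tool roles, annotation and strand setting are not given in the sources used, and overlapping or antisense genes may share reads.

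RefSeq tables of GRCm38.p6 gave 32487 of 32915 records a symbol. Of the members 61 records matched by current and 10 by older symbol. Names follow the older symbols. GC content, transcript length and stem-loops came from GENCODE M21 transcripts, whose models run longer than the RefSeq record for some histone genes, Hist1h1d among them.

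Records were kept by filterByExpr with a minimum count of 10, scaled by TMM (mean effective size 3119862) and tested by edgeR 4.0.16 (R 4.3.3) with the quasi-likelihood test, without covariates, over all 6981 records, with p-values adjusted by Benjamini-Hochberg and called below 0.05. The scripts were tested on simulated data. Library totals of 2778686 to 3368693 counts limit the precision of low genes, intervals cover counting error only, and the common biological coefficient of variation was 15.8%. Alternatives were other scalings, filters, limma-voom (limma 3.58.1), DESeq2 1.42.0, summed records, a replicate block, a spline trend on GC content and length (4 degrees of freedom each), and leaving out each library. The fits of the trend without control replicate 1 and of plain library totals were added after seeing the data. Members and lists were chosen with earlier results of these data known. The genes named are, by rule, the called members, the 3 most abundant and the largest change of each class, called and the 2 most abundant genes of each list, and 2 LPS response genes.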

Additional observations from a re-analysis of the deposited data

How the results depend on the processing

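No member was higher under any setting tried. With plain library totals the 3 members called lower became 0, against 0.158% of all records. They became 4 with totals that leave out the 5 most abundant records, against 1.72%. Without the filter 8 of 55 tested members were lower, against 1.6% of 13081 records. A stricter filter (mean normalised count of 50 or more), where Hist2h2be was not tested, gave 2, against 1.31% of 4116 records. DESeq2 gave 2 (0.945% of all records), limma-voom 3 (1.5%) and median-of-ratios factors 3 (1.58%). With records of a gene summed, 3 members were called lower, and the share of all genes in that fit is not given here. With the GC and length trend removed they were 17, and 18 when control replicate 1 was also left out. Leaving out 1 library gave 0 to 48. The groups share replicate numbers, and the labels do not say whether these were pairs. Across tested records, the difference of replicate 1 minus replicate 2 in the controls had a correlation of 0.23 with that in the LPS pair. A replicate block gave 15 members lower, against 4.13% of all records, or 34 with the trend removed, against 6.72%. All records called higher and lower, 267 and 119, became 109 and 11 with plain totals, 365 and 209 without the filter, 164 and 54 with the stricter filter, 203 and 66 with DESeq2, 401 and 288 with the block, 458 and 273 with the trend removed, 605 and 469 with both, 614 and 365 with the trend removed and without control replicate 1, and 165 to 723 and 39 to 581 on leaving out 1 library. The 2 called genes of the related lists became 0 with plain totals, 4 without the filter, 0 with the stricter filter, 1 with DESeq2, 6 with the block, 6 with the trend removed, 12 with both, 13 with the trend removed and without control replicate 1, and 0 to 18 on leaving out 1 library. Signs turned, with the cause not tested. Cpsf2 stood at -0.0024 and Npm3 at -0.038 with totals that leave out the 5 most abundant records, and Hist1h1d at 0.061 and Cpsf2 at -0.020 with the trend removed and without control replicate 1. On leaving out 1 library, Hist1h4b ran from -0.96 to 0.028, H2afx from -0.18 to 0.52, Cpsf2 from -0.20 to 0.49, Snrpb from -0.30 to 0.16 and Npm3 from -0.090 to 0.18. Over the members, the median change ran from -0.74 to -0.17, and class totals kept their sign, from -0.62 to -0.02 for H4 and from -0.76 to -0.34 for H3. Depth limits the low members: Hist2h2be rests on 187 counts in all.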
